A study of Mus musculus with 4 samples.

Results

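The interleukin-1 and interleukin-18 genes described here are 7 of the 32285 genes listed in each library, chosen by their gene symbols: the ligand genes Il1a, Il1b and Il18, the antagonist gene Il1rn, the decoy receptor gene Il1r2, the shared receptor subunit gene Il1rap and the interleukin-18 receptor gene Il18r1. They were followed in leukocytes of mouse lung grafts early after reperfusion. All grafts were left lungs of B6 mice moved into B6 hosts, stored for 60 min at 4 °C and 45 min at 28 °C and taken 2 h after engraftment, and the leukocytes were sorted on CD45, the surface protein of nearly all leukocytes. Resolvin D1 (RvD1) is a lipid mediator formed from docosahexaenoic acid. Mice were injected intravenously with 200 ng of it, dissolved in 200 µL of 1% ethanol, just ahead of the transplantation. For the vehicle groups the injection was 200 µL of 1% ethanol without RvD1. The sample labels name recipient mice as the injected animals, while the series text speaks of treated grafts.

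The 4 groups, with 1 library each, were recipient-derived leukocytes with RvD1, recipient-derived leukocytes with vehicle, donor-derived leukocytes with RvD1 and donor-derived leukocytes with vehicle. Each library pooled 2 lungs, and whether recipient and donor cells were sorted out of the same lungs was not given in the sources used here. With 1 library per group there was no test of any difference, and the 95% intervals given below cover counting error only.

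Interleukin-1 alpha and interleukin-1 beta are cytokines of acute inflammation that signal through the receptor IL1R1 together with the accessory protein IL1RAP. The antagonist encoded by Il1rn occupies IL1R1 without signalling, and IL1R2 binds the ligands but lacks a signalling domain. Interleukin-1 beta and interleukin-18 are made as precursors that are cut by caspase-1 within inflammasomes, whereas the precursor of interleukin-1 alpha is active as such. Interleukin-18 acts through IL18R1 and IL18RAP, mainly on natural killer (NK) cells and T cells. In reperfused organs interleukin-1 is known as a signal of cell injury that draws in neutrophils.

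In the mm10 build with GENCODE M21 annotation, Il1a (ENSMUSG00000027399) spans chr2:129299610-129309972 on the minus strand and Il1b (ENSMUSG00000027398) spans chr2:129364570-129371139 on the same strand, 54.6 kb away. Il1rn (ENSMUSG00000026981) lies elsewhere on that chromosome, at chr2:24336853-24351494 on the plus strand. Il1r2 (ENSMUSG00000026073, chr1:40074079-40125231) and Il18r1 (ENSMUSG00000026070, chr1:40465552-40500854) are both on the plus strand and 340.3 kb apart. Il18 (ENSMUSG00000039217) spans chr9:50554827-50581840 and Il1rap (ENSMUSG00000022514) spans chr16:26581704-26730117, both on the plus strand. All 7 are annotated as protein-coding.

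The promoters of both interleukin-1 ligand genes and of the antagonist gene are shown because these genes were set against each other in the same cells. Each sequence is the 250 bases before the RefSeq start in GRCm38.p6, read along the gene's own strand. Capitals mark matches to 1 of 5 searched motifs, on either strand: the NF-kappaB site, AP-1 (TGANTCA), PU.1 (GAGGAA), C/EBP (TTGCNNAA) and the TATA box (TATAAA).
Il1a, chr2:129309973-129310222, minus strand: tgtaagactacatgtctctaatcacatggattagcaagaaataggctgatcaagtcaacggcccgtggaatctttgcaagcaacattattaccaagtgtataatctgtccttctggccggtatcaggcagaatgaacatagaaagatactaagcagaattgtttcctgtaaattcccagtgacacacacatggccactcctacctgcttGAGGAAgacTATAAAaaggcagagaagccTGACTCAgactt
Il1b, chr2:129371140-129371389, minus strand: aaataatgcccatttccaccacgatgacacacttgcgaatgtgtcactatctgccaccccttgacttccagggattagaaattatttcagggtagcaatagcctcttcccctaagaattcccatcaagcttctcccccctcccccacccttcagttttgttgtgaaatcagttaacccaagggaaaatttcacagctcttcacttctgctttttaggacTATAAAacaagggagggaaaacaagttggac
Il1rn, chr2:24336610-24336859, plus strand: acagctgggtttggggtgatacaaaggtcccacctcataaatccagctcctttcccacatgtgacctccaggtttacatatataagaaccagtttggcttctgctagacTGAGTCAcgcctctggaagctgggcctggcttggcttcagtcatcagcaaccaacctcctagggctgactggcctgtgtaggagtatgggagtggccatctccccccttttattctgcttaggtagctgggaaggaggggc
The Il1a window held a TATA match 27 to 32 bases before the start, a PU.1 match 36 to 41 bases before it and an AP-1 match 6 to 12 bases before it. The Il1b window held a TATA match 26 to 31 bases before the start. The first Il1rn start had an AP-1 match 135 to 141 bases upstream. The windows of the other RefSeq starts of Il1rn, at chr2:24345041-24345290 and chr2:24345121-24345370, held no match to any of the 5 motifs and are not shown. Which of these starts the leukocytes used was not tested. Of 32851 RefSeq promoters of this length, 12.4% held the TATA letters, 6.75% the AP-1 letters, 23.3% the PU.1 letters, 9.56% the C/EBP letters and 3.9% the NF-kappaB letters. These are matches of letters and carry no measurement of binding.

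Expression was counted as unique molecular identifiers (UMIs), each marking 1 captured transcript end. The libraries held 49967935 UMIs in 7836 barcodes (RvD1 recipient), 42199775 in 5987 (vehicle recipient), 44338340 in 5195 (RvD1 donor) and 61294707 in 5743 (vehicle donor). After filtering, 23739 cells remained in 27 clusters, of which 22207 cells in 21 clusters could be named from marker genes. An unnamed cluster of 399 cells was led by epithelial genes such as Sftpc. Names such as neutrophil stand for neutrophil-like by those markers. Any 2 libraries shared at most 15 barcodes. The file headers name Cell Ranger 7.0.1 for the RvD1 libraries and Cell Ranger 6.1.1 for the vehicle libraries. An effect of RvD1 and an effect of the version therefore cannot be told apart below. The 12 neutrophil markers summed to 125579 CPM in RvD1 recipient neutrophils, 127987 in vehicle recipient, 109008 in RvD1 donor and 70527 in vehicle donor neutrophils.

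Across leukocyte classes the genes fell into distinct places. Il1b led in basophils and neutrophils, Il1rn, Il1r2 and Il1rap in neutrophils, Il1a and Il18 in alveolar macrophages, and Il18r1 in basophils, NK cells and T cells. Levels are given as UMIs per 1000000 UMIs of the class in that library, abbreviated CPM.

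Il1b, the gene of interleukin-1 beta, was highest in a class led by Prss34 and Mcpt8, which are basophil and mast cell proteases, at 8992 (RvD1 recipient, 67 cells), 10377 (RvD1 donor, 84 cells) and 10183 CPM (vehicle donor, 69 cells). The 12 neutrophil markers summed to 9915, 9868 and 9783 CPM in that class, with Ly6g at 0 in all 3 libraries, and their part in its Il1b was not tested. In neutrophils it reached 7634 CPM in the RvD1 recipient library against 4771 in vehicle recipient, and 7565 in RvD1 donor against 5310 in vehicle donor. Both RvD1 libraries therefore lay above both vehicle libraries in neutrophils. In classical monocytes, the Ly6c2- and Ccr2-expressing precursors of tissue macrophages, Il1b ran at 2409, 1643, 2195 and 2166 CPM for RvD1 recipient, vehicle recipient, RvD1 donor and vehicle donor. Nonclassical monocytes, which patrol vessels, carried 1585.5, 1305, 1402 and 1748 CPM in that library order. These 2 classes overlapped in part across libraries, while every neutrophil value exceeded every monocyte value. Donor dendritic cells had 1979 CPM with RvD1 and 1594 with vehicle, within the range of the monocytes.

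Il1b UMIs were found in 99.2% of RvD1 recipient, 98.2% of vehicle recipient, 98.5% of RvD1 donor and 97.8% of vehicle donor neutrophils. B cells, which are not known for interleukin-1 beta production, had a UMI in 11.3%, 13.3%, 12.6% and 14.2% of cells in that order, at median depths of 4565 to 6405 UMIs per cell against 4870 to 5344 in neutrophils. Thinned to 1000 UMIs per cell, 94.3%, 84.8%, 92.1% and 86.5% of neutrophils and 3.4%, 3.4%, 3.3% and 2.4% of B cells had a UMI. The B-cell level of 25.4 to 64.1 CPM was read as background. In the RvD1 donor library 40.0% of the 100 B-cell Il1b UMIs came from 1 cell. NK cells and T cells were similar, at 19.7 to 63.9 and 17.3 to 24.6 CPM.

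Il1a, the gene of interleukin-1 alpha, was highest in vehicle donor alveolar macrophages, the resident phagocytes of the airspace, at 271 CPM in 224 cells. The RvD1 donor library held 41 such cells, with a median of 3159 UMIs per cell against 28936 in vehicle donor, too few for a level, and the recipient libraries held 6 and 4. Neutrophils came next, at 71.8 CPM in RvD1 recipient against 104.0 in vehicle recipient, and 100.4 in RvD1 donor against 172.2 in vehicle donor. Within each origin the RvD1 library was lower, but the RvD1 donor value lay close to the vehicle recipient value. Il1a was carried by a minority of neutrophils: 12.8%, 19.2%, 16.0% and 26.2% had a UMI in RvD1 recipient, vehicle recipient, RvD1 donor and vehicle donor. The 10% of neutrophils richest in Il1a held 92.2%, 82.5%, 88.5% and 75.2% of the Il1a UMIs in the same order. With every cell thinned to 1000 UMIs the shares with a UMI were 4.9%, 7.3%, 6.6% and 10.8%, in the same order of size. Classical monocytes stayed between 11.7 and 18.9 CPM and B cells between 1.0 and 2.1.

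Il18 also peaked in vehicle donor alveolar macrophages, at 291 CPM and with a UMI in 96.4% of cells. In neutrophils it stood at 113.7 CPM in RvD1 recipient against 56.6 in vehicle recipient, and at 75.8 in RvD1 donor against 49.2 in vehicle donor. Both RvD1 values were thus above both vehicle values. Classical monocytes carried 68.0, 38.2, 47.5 and 43.7 CPM and nonclassical monocytes 28.5, 20.1, 28.8 and 23.3 for RvD1 recipient, vehicle recipient, RvD1 donor and vehicle donor. The basophil class had no Il18 UMI in any of its 3 measured libraries, although it led for Il1b.

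Il1rn, the antagonist gene, was a neutrophil transcript: 1261 CPM in RvD1 recipient against 1411 in vehicle recipient, and 1428 in RvD1 donor against 2009 in vehicle donor. Vehicle donor neutrophils stood above the other libraries, which lay within 1261 to 1428. Alveolar macrophages of the vehicle donor library had 321 CPM. Dendritic cells had 178 in RvD1 donor against 318 in vehicle donor. Classical monocytes ranged over 153 to 210, nonclassical monocytes over 24.4 to 94.6 and B cells over 3.2 to 7.0 CPM. The basophil class had only 23.9 to 40.3 CPM of the antagonist.

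Il1r2, the decoy receptor, reached 3576 CPM in RvD1 recipient neutrophils against 2864 in vehicle recipient, and 2275 in RvD1 donor against 2199 in vehicle donor. The recipient libraries were higher than the donor libraries with both treatments, and 96.9% to 99.4% of neutrophils had a UMI. Donor dendritic cells had 235.5 (RvD1) and 164.6 (vehicle) CPM, classical monocytes 120 to 200 and nonclassical monocytes 12.7 to 40.6. Il1rap, the accessory subunit needed for signalling, was at 1275, 1030, 1128 and 1079 CPM in neutrophils of RvD1 recipient, vehicle recipient, RvD1 donor and vehicle donor. It was the most even of the 7 genes over the neutrophil libraries. No other named class measured in all 4 libraries exceeded 97.5 CPM. An unnamed cluster with nonclassical monocyte and neutrophil markers, outside these classes, held 1002 Il1rap UMIs in 97 vehicle recipient cells. Il1r1, the signalling receptor itself, had only 1.4 to 4.6 CPM in neutrophils.

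Il18r1 ran against this pattern. The basophil class held 378.5 (RvD1 recipient), 391 (RvD1 donor) and 399 (vehicle donor) CPM. NK cells had 337, 295, 319 and 278 and T cells 118, 133, 291 and 202 for RvD1 recipient, vehicle recipient, RvD1 donor and vehicle donor. Neutrophils stayed at 20.0, 26, 29.4 and 31.7 CPM, monocytes at 0.0 to 2.3 and B cells at 1.3 to 6.8. Its partner Il18rap, the signalling accessory subunit, was at 575, 519.5, 664 and 629 CPM in NK cells in the same library order. Neutrophils carried Il18rap at 438, 353, 421 and 406 CPM, far above their Il18r1.

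**Figure D1:**
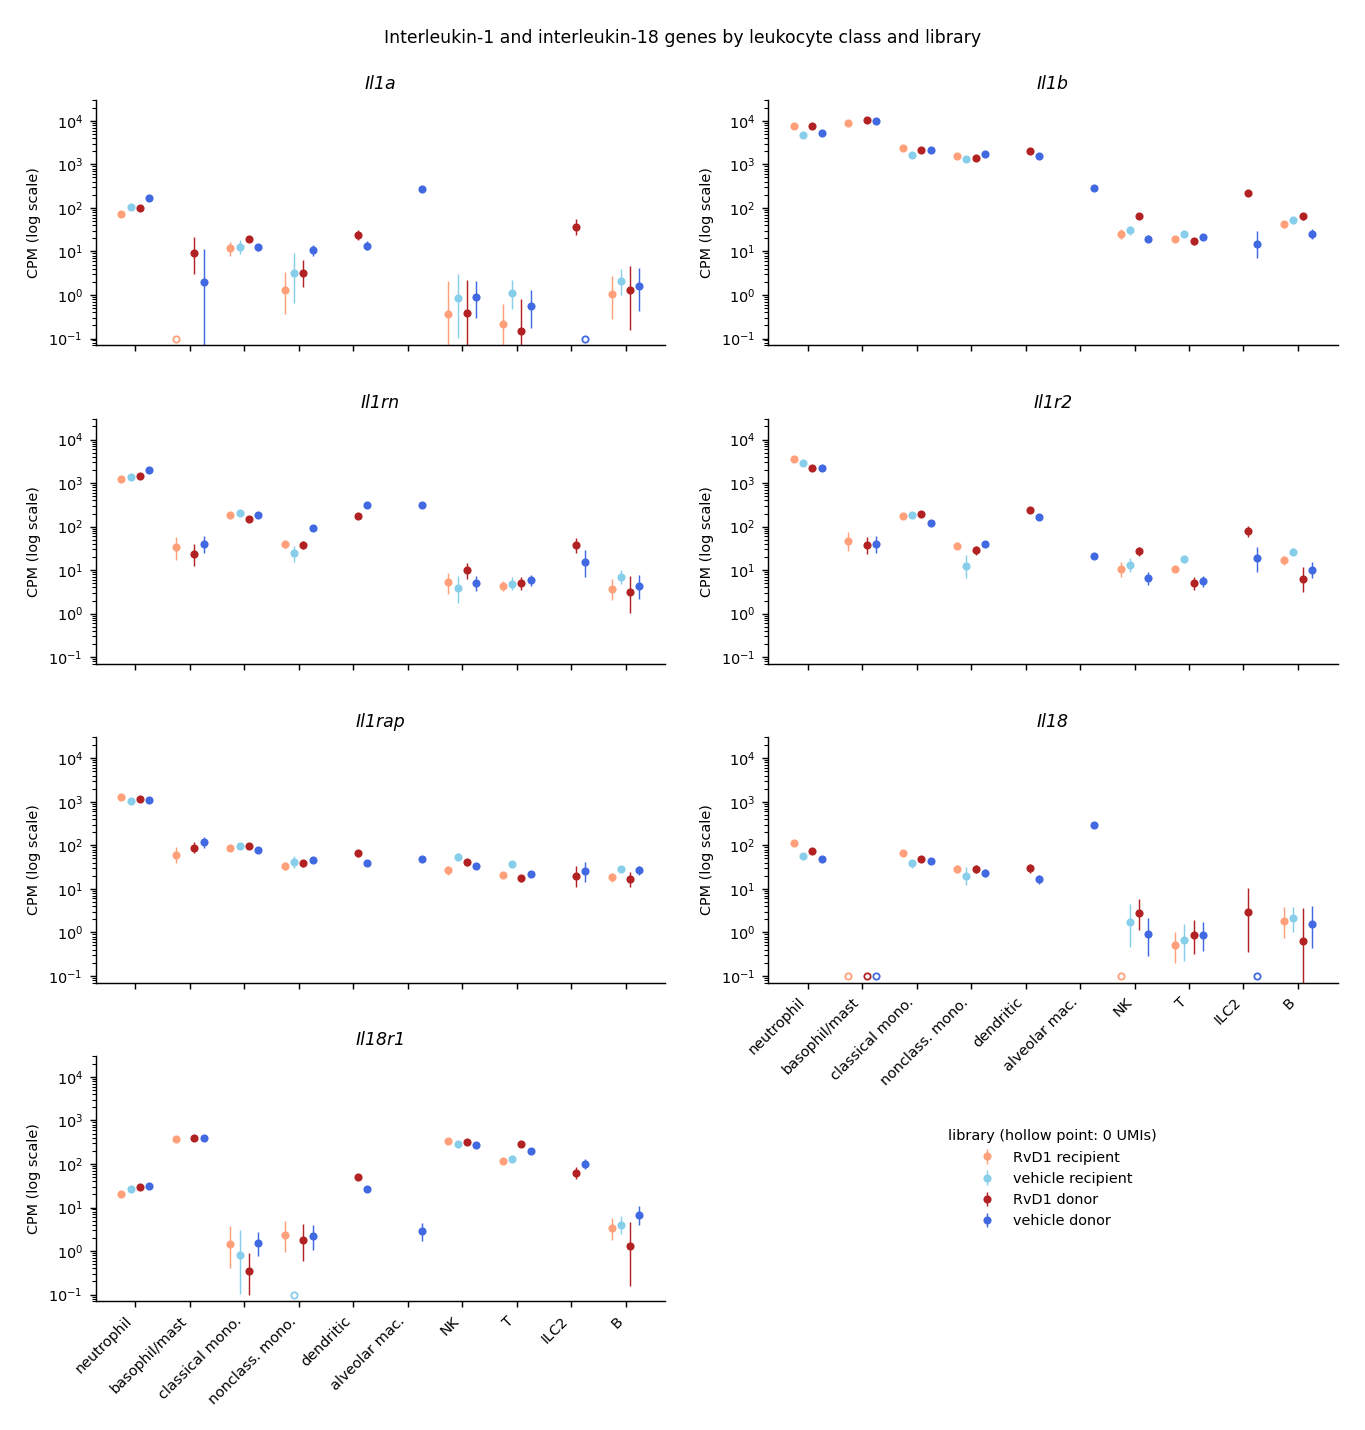
Level of each gene in CPM (log axis) in 10 leukocyte classes, with 1 point per library of at least 50 cells and exact Poisson 95% intervals, hollow points marking 0 UMIs. Neutrophils sit highest for Il1rn, Il1r2 and Il1rap, vehicle donor alveolar macrophages for Il1a (271) and Il18 (291). Il18r1 is highest in basophils, NK cells and T cells.

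Most transcripts of 6 of the 7 genes came from neutrophils in the recipient libraries. Neutrophils held 85.0% (RvD1 recipient), 87.4% (vehicle recipient), 62.1% (RvD1 donor) and 41.9% (vehicle donor) of all Il1b UMIs. For Il1rn the shares were 92.8%, 92.1%, 80.7% and 60.3%, and for Il1r2 95.9%, 94.2%, 83.1% and 73.2%. The vehicle donor library was the lowest for each of these genes, and it also had the fewest neutrophils, 1399 of 5532 cells used. In that library alveolar macrophages held 46.7% of Il1a and 62.7% of Il18 UMIs against 36.4% and 13% in neutrophils. The unnamed cluster with nonclassical monocyte and neutrophil markers held 16366 Il1b and 4470 Il1rn UMIs there, against 41510 and 15705 in neutrophils. T cells held 52.1%, 42.3%, 55.2% and 42.5% of Il18r1 UMIs and NK cells 28.5%, 29.9%, 22.4% and 35.2%. Shares of a library's UMIs move with the numbers of cells of each class as well as with the level per cell.

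**Figure D2:**
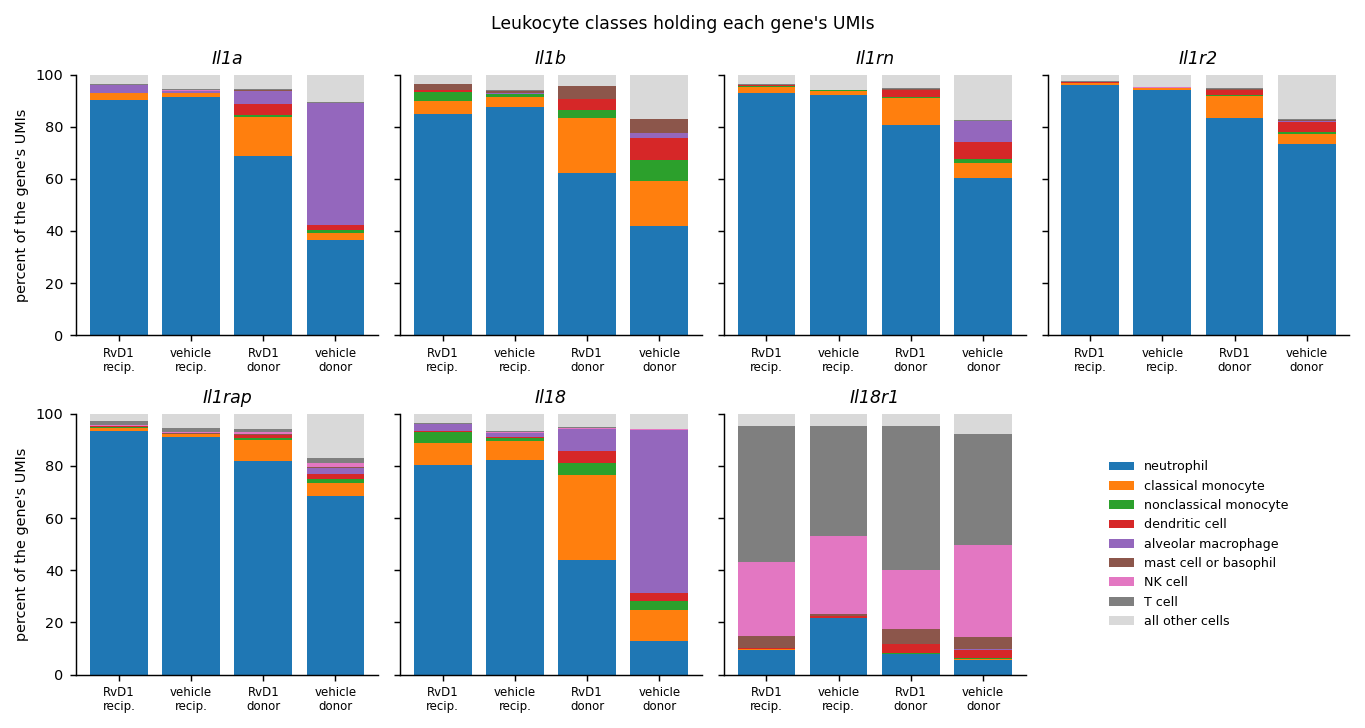
Percent of each gene's UMIs held by each leukocyte class, 1 stacked bar per library. Neutrophils fill most of each recipient bar for every gene but Il18r1, and alveolar macrophages hold 62.7% of Il18 in the vehicle donor bar.

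The comparison of RvD1 with vehicle within neutrophils asked how the treatment related to these genes in each origin. Il1b and Il18 were higher with RvD1 in both origins, Il1a and Il1rn were lower in both, and Il1r2 and Il1rap differed mainly in recipient cells. The log2 ratio of RvD1 to vehicle for Il1b was 0.68 (95% interval 0.67 to 0.69) in recipient and 0.51 (0.49 to 0.53) in donor neutrophils. For Il18 it was 1.01 (0.90 to 1.12) and 0.62 (0.44 to 0.80). For Il1a it was -0.53 (-0.64 to -0.43) and -0.78 (-0.90 to -0.66). For Il1rn the 2 origins differed more, at -0.16 (-0.19 to -0.14) in recipient and -0.49 (-0.53 to -0.46) in donor neutrophils. Il1r2 had 0.32 (0.30 to 0.34) in recipient and 0.05 (0.02 to 0.08) in donor, and Il1rap 0.31 (0.28 to 0.34) and 0.06 (0.02 to 0.10). Il18r1 had -0.38 (-0.59 to -0.17) and -0.11 (-0.36 to 0.14), the donor interval spanning 0.

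As a rule of size, a gene was called higher or lower if both origins showed a ratio of 1.5-fold or more that way. In neutrophils 1 of 7 genes, Il18, was higher by it and none was lower, while 5.23% of the 6388 genes measured there were higher and 9.6% lower. The median log2 ratio of all measured genes was 0.11 in recipient and 0.04 in donor neutrophils. In classical monocytes none of 5 measured members passed in either direction, against 0.986% of 5373 genes higher and 2.62% lower. In nonclassical monocytes none of 5 passed, against 0.894% of 5033 genes higher and 1.55% lower. Under another scaling, by median-of-ratios size factors, 1 neutrophil member passed as lower, and with the mean of each cell's own level none passed as higher.

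**Figure D3:**
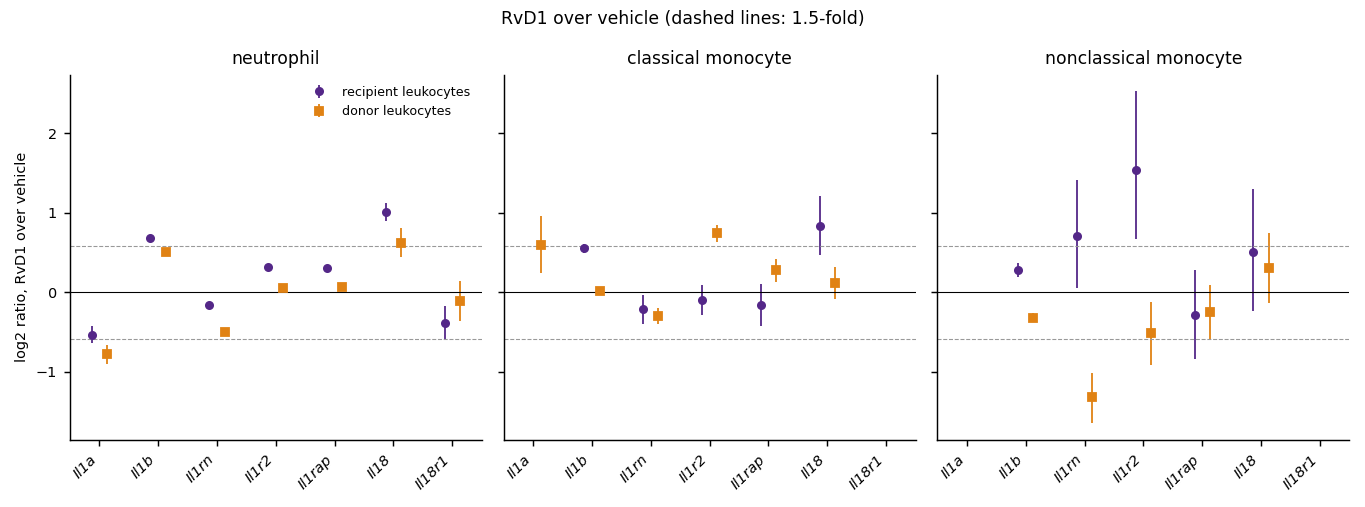
Log2 ratio of RvD1 to vehicle for each gene with at least 100 UMIs in the comparison, in recipient and donor cells of 3 classes, with exact 95% intervals and dashed lines at 1.5-fold. In neutrophils Il18 lies above the upper line in both origins (1.01 and 0.62), and in nonclassical monocytes Il1rn lies on opposite sides of 0 in recipient (0.71) and donor (-1.32) cells.

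The balance of antagonist to ligand was read as Il1rn UMIs per 100 Il1b UMIs in the same cells, which does not depend on the library total. Capture can differ between genes, so the balance was compared between libraries and classes and not read as a molar ratio. In neutrophils it was 16.5 in RvD1 recipient against 29.6 in vehicle recipient, and 18.9 in RvD1 donor against 37.8 in vehicle donor. The log2 change was -0.84 (-0.87 to -0.81) in recipient and -1.0 (-1.04 to -0.97) in donor neutrophils. Both RvD1 libraries were below both vehicle libraries. Il1a per 100 Il1b was likewise 0.94 in RvD1 recipient against 2.18 in vehicle recipient, and 1.33 in RvD1 donor against 3.24 in vehicle donor. Il1r2 per 100 Il1rap did not part by treatment, at 281 and 278 in RvD1 and vehicle recipient and 202 and 204 in RvD1 and vehicle donor neutrophils.

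In classical monocytes the balance was 7.51 in RvD1 recipient against 12.8 in vehicle recipient (log2 change -0.77, -0.95 to -0.58), and 6.98 in RvD1 donor against 8.71 in vehicle donor (-0.32, -0.42 to -0.21). Donor dendritic cells had 9.0 with RvD1 against 19.9 with vehicle, a log2 change of -1.15 (-1.31 to -0.99). Nonclassical monocytes had 2.51 in RvD1 recipient against 1.87 in vehicle recipient (log2 change 0.42, -0.23 to 1.07, spanning 0), and 2.70 in RvD1 donor against 5.41 in vehicle donor (-1.0, -1.32 to -0.69). With a neighbouring cluster of mixed markers added, described further on, their changes were -1.40 in recipient and -0.84 in donor cells. The classes differed far more than the libraries: vehicle donor alveolar macrophages had 109.5 antagonist UMIs per 100 Il1b UMIs, and the basophil class had 0.37 (RvD1 recipient), 0.23 (RvD1 donor) and 0.40 (vehicle donor). In the alveolar macrophages 16.6% of Il1b UMIs came from 1 cell.

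**Figure D4:**
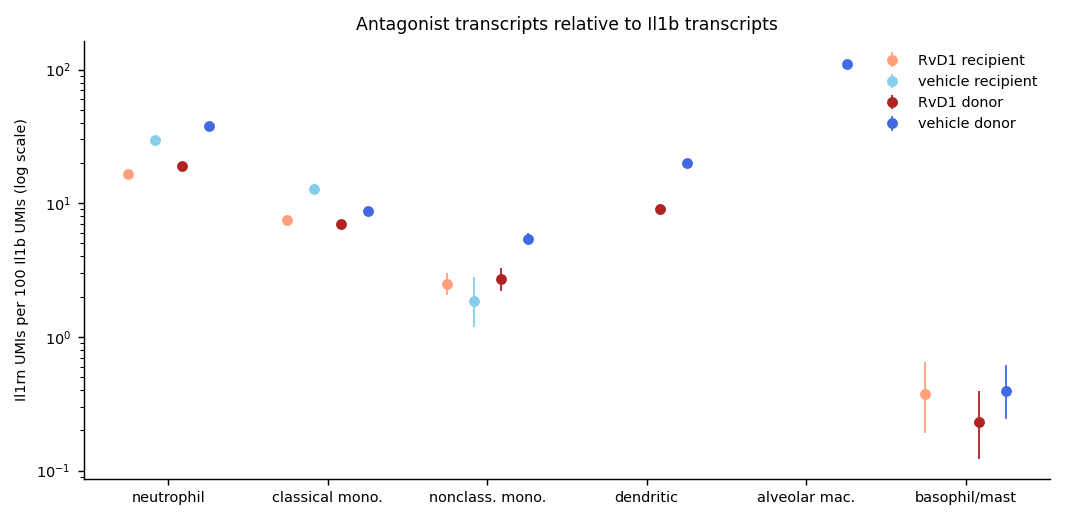
Il1rn UMIs per 100 Il1b UMIs (log axis) in 6 leukocyte classes, 1 point per library with exact 95% intervals. In neutrophils the RvD1 points (16.5 and 18.9) lie below the vehicle points (29.6 and 37.8), and the basophil class lies lowest at 0.23 to 0.40.

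Neutrophils were not uniform for these genes, and the mix of neutrophil clusters differed between libraries. The clusters were formed without interleukin-1 family genes. A cluster led by Enthd1 and Cc2d2b and highest in Fnip2 and Pnpla7 made up 32.8% of neutrophils in vehicle recipient, 9.3% in RvD1 donor and 55.6% in vehicle donor, and had fewer than 50 cells in RvD1 recipient. It had the highest antagonist balance, at 73.5 Il1rn UMIs per 100 Il1b UMIs in vehicle recipient, 32.4 in RvD1 donor and 60.1 in vehicle donor. A cluster led by Snai1, Ptgs2 and G0s2 made up 28.5% of RvD1 recipient against 10.3% of vehicle recipient neutrophils, and 15.3% of RvD1 donor against 8.5% of vehicle donor neutrophils. It had the highest Il1b, 10907, 10671, 10847 and 10014 CPM for RvD1 recipient, vehicle recipient, RvD1 donor and vehicle donor, and the lowest balance, 7.50, 6.82, 7.20 and 6.51. The cluster led by Retnlg and Ly6g, a surface marker of mature neutrophils, had Il1a at 15 to 20.8 CPM, the lowest of the 6 clusters in 3 of 4 libraries.

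Without the Fnip2- and Pnpla7-high cluster the antagonist balance in neutrophils changed by -0.21 in recipient and -0.19 in donor cells on the log2 scale, much nearer to 0 than with all neutrophils. In the same cells Il1b had RvD1-to-vehicle log2 ratios of 0.46 and 0.17, and Il1a -0.05 and -0.11. Il18 kept 0.95 and 0.67. Il1rn had 0.25 in recipient, the opposite sign to all neutrophils, and -0.02 in donor cells. Leaving out this cluster thus moved the ratios of Il1b, Il1a and Il1rn more than that of Il18, and Il1b stayed higher with RvD1 in both origins. The part of the cluster mix in the ratios over all neutrophils was not tested.

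Within single clusters, Il1b was higher with RvD1, by its counting interval, in 5 of 5 recipient and 5 of 6 donor comparisons. Its log2 ratios had medians of 0.31 and 0.23 and ranged from 0.03 to 0.64 in recipient and 0.01 to 0.45 in donor cells. The clusters come from the same libraries and are not replicates. The Fnip2- and Pnpla7-high cluster had too few RvD1 recipient cells for a recipient comparison. Il18 was higher in 5 of 5 recipient and 3 of 5 donor comparisons, with medians of 1.0 and 0.65. Il1rn had no common direction, being higher in 3 and lower in 1 of 5 recipient comparisons, and higher in 1 and lower in 4 of 6 donor comparisons. Il1a was lower in 2 of 5 recipient and 2 of 4 donor comparisons and higher in none. Il1r2 was higher in 5 of 5 recipient comparisons and in 0 of 6 donor comparisons. In the cluster of interferon-induced genes (Ifit1, Rsad2) the balance was 14.4 in RvD1 recipient against 33.9 in vehicle recipient, and 13.6 in RvD1 donor against 29.5 in vehicle donor, a smaller RvD1-to-vehicle ratio in this cluster than over all neutrophils in both origins. In the cluster led by Csf3 and Gpr84 it was 20.8 against 27.5 and 14.8 against 22.6 in the same pairs, and in the cluster led by Csta2 and Cxcl3 it was 40.5 against 40.6 and 29.3 against 41.4.

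**Figure D5:**
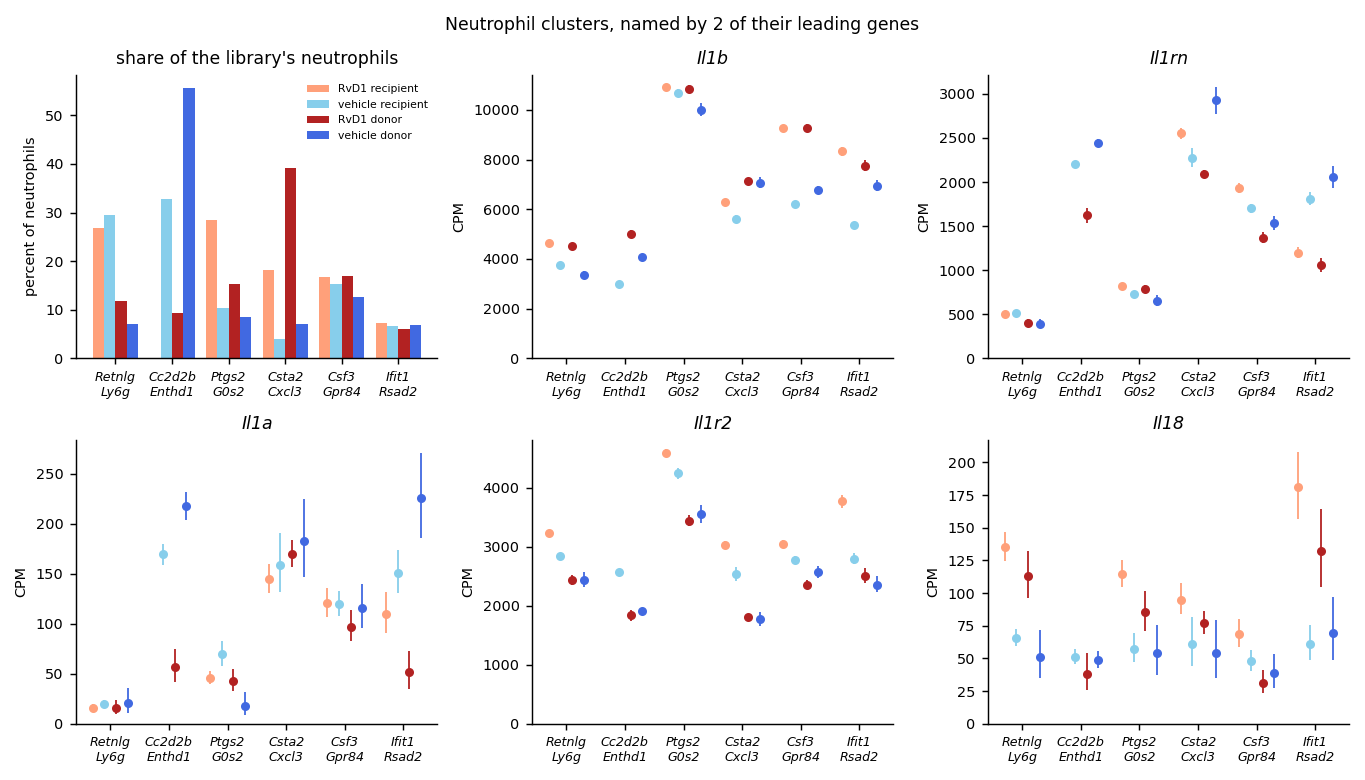
Share of each library's neutrophils (bars) and CPM of 5 genes (points with exact Poisson 95% intervals) in 6 neutrophil clusters, named by leading genes, for libraries with at least 50 cells of the cluster. The Cc2d2b and Enthd1 cluster holds 55.6% of vehicle donor against 9.3% of RvD1 donor neutrophils, and Il1b is highest in the Ptgs2 and G0s2 cluster in every library.

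Antagonist and ligand transcripts were mostly in the same neutrophils: 82.0% (RvD1 recipient), 83.0% (vehicle recipient), 82.5% (RvD1 donor) and 86.0% (vehicle donor) of neutrophils had UMIs of both Il1rn and Il1b. Neutrophils with an Il1a UMI had an Il1rn UMI in 94.1%, 94.7%, 95.3% and 94.3% of cases, against 80.9%, 82.2%, 81.0% and 85.6% of those without, in the same library order. Cells with more UMIs are more likely to show either gene, and the part of depth in this was not tested.

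In recipient against donor neutrophils, a comparison within 1 software version, Il1r2 was higher and Il1a and Il1rn were lower in recipient cells with both treatments. The log2 ratios of recipient to donor were 0.65 (0.63 to 0.68) with RvD1 and 0.38 (0.36 to 0.41) with vehicle for Il1r2. They were -0.48 and -0.73 for Il1a, -0.18 and -0.51 for Il1rn, and 0.59 and 0.20 for Il18. Il1b was near 0 with RvD1 (0.01) and at -0.15 with vehicle. No member reached 1.5-fold in both treatments in either direction, among 6793 genes of which 1.97% were higher and 3.64% lower. The Il1r2 to Il1rap ratio was higher in recipient neutrophils by 0.48 (0.44 to 0.52) with RvD1 and 0.45 (0.40 to 0.49) with vehicle. The decoy receptor thus stood apart from the accessory subunit by similar amounts with both treatments. The mix of clusters also differed by origin. The cluster led by Retnlg and Ly6g made up 26.7% of RvD1 recipient against 11.8% of RvD1 donor neutrophils, and 29.5% against 7.0% with vehicle. The part of this mix in the recipient-to-donor ratios was not tested.

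In classical monocytes, Il1b had a log2 ratio of RvD1 to vehicle of 0.55 (0.49 to 0.61) in recipient and 0.02 (-0.01 to 0.05) in donor cells. Il1rn was slightly lower in both, at -0.21 (-0.40 to -0.03) and -0.30 (-0.40 to -0.20). Il1r2 was higher only by the donor ratio of 0.74 (0.63 to 0.85), with -0.10 (-0.29 to 0.09) in recipient cells, and that contrast between origins was not tested. Il18 had 0.83 (0.46 to 1.21) and 0.12 (-0.08 to 0.32). Summed neutrophil markers in these monocytes were 871 (RvD1 recipient), 1945 (vehicle recipient), 1155 (RvD1 donor) and 491 (vehicle donor) CPM, with Ly6g at 0 in 3 of 4 libraries, and their part in these ratios was not tested.

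In nonclassical monocytes the RvD1-to-vehicle ratios of Il1b, Il1rn and Il1r2 had opposite signs in the 2 origins, while those of Il1rap (-0.29 in recipient and -0.25 in donor) and Il18 (0.50 and 0.31) had the same sign, with intervals spanning 0. Il1rn was at 39.7 CPM in RvD1 recipient against 24.4 in vehicle recipient, and at 37.9 in RvD1 donor against 94.6 in vehicle donor. Vehicle donor cells were the high library, and the vehicle recipient value rests on 23 UMIs in 104 cells. Summed neutrophil markers were 929, 538, 761 and 903 CPM for RvD1 recipient, vehicle recipient, RvD1 donor and vehicle donor, and their part was not tested. A neighbouring cluster held both nonclassical monocyte and neutrophil markers and was left unnamed. With it added, the recipient log2 ratios of RvD1 to vehicle were -1.56 for Il1rn, -0.16 for Il1b and -1.45 for Il1r2, each of the opposite sign, and 2 members were lower by the size rule in place of 0. Clustering each library alone also reversed the ratios of these 3 genes in both origins.

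Donor dendritic cells differed in all 7 genes by their counting intervals. With RvD1 over vehicle the log2 ratio was -0.83 for Il1rn (-0.99 to -0.68), while Il1b had 0.31, Il1r2 0.52, Il1rap 0.70, Il1a 0.84, Il18 0.87 and Il18r1 0.94. The recipient libraries held 36 and 12 dendritic cells, too few for a second comparison. Summed neutrophil markers were 1145 CPM in RvD1 donor against 494 in vehicle donor dendritic cells, and their part was not tested.

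Among lymphoid cells, NK-cell Il18r1 had log2 ratios of RvD1 to vehicle of 0.20 (0.05 to 0.34) in recipient and 0.20 (0.07 to 0.32) in donor cells. In T cells it was -0.18 (-0.29 to -0.06) and 0.52 (0.43 to 0.62). Recipient over donor, T-cell Il18r1 was lower with both treatments, with log2 ratios of -1.31 (-1.40 to -1.21) with RvD1 and -0.61 (-0.72 to -0.49) with vehicle. It was the 1 of 4 measured members past 1.5-fold lower with both treatments, as were 10.8% of 8677 T-cell genes. Il1r2 was the 1 member past it upwards, as were 1.26% of genes, at 10.6 and 17.6 CPM in recipient against 5.1 and 5.6 in donor T cells (RvD1 and vehicle). These Il1r2 levels lay within the 6.4 to 26.6 CPM of B cells and were read as background.

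Il18r1 levels differed between T-cell clusters, whose shares of T cells differed between libraries, and the part of those shares in the T-cell ratios was not tested. A cluster led by Il23r, Il17a and Cd163l1, genes of interleukin-17-producing T cells, carried 645 (RvD1 recipient), 606 (RvD1 donor) and 482 (vehicle donor) CPM. It made up 2.9%, 27.1% and 17.4% of T cells in those libraries. A cluster led by Trib2, Igfbp4 and Cd4 carried 50.6, 78.2, 68.6 and 38.8 CPM and made up 44.1%, 38.8%, 9.0% and 17% of T cells for RvD1 recipient, vehicle recipient, RvD1 donor and vehicle donor. A cluster with Hbb-bs and Hba-a1 among its leading genes carried 92.9, 107.5, 156.4 and 91.1 CPM and made up 33.8%, 40.2%, 10.9% and 19.4%, in the same order. A cluster led by Gzmk and Cd8a carried 179, 229, 157 and 135 CPM, higher in recipient than in donor cells, the reverse of T cells as a whole. The Foxp3 cluster, regulatory T cells by that gene, carried 277, 231, 282 and 387 CPM. Il1r1 in T cells was 9.9, 5.7, 71.7 and 40.1 CPM in the same order, also higher in donor libraries. Group 2 innate lymphoid cells, found in the donor libraries, had Il1rl1, the receptor for interleukin-33, at 1474.5 CPM with RvD1 and 1455 with vehicle, and Il18r1 at 63.2 and 99.5.

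Other genes of the pathway were taken by list in neutrophils, by the same 1.5-fold rule for RvD1 over vehicle in both origins. Of receptor signalling genes, 14 of 15 were measured, of which 1 was higher (Map3k7, a kinase downstream of the receptor) and 1 lower (Peli1, a ubiquitin ligase of the pathway), with median log2 ratios of 0.22 in recipient and 0.06 in donor cells. Of genes of cytokine maturation and release, 15 of 20 were measured, with 0 higher and 1 lower (Aim2, a DNA sensor of inflammasomes), and medians of 0.12 and 0.11. Of genes that respond to interleukin-1, 15 of 17 were measured, with 0 higher and 1 lower (Csf3, the neutrophil growth factor gene), and medians of -0.11 and -0.09. Of other receptors and binding proteins, 3 of 8 were measured and 1 was lower (Il1rl1). Il1f9, encoding interleukin-36 gamma, was the 1 other ligand measured of 6, at 487, 747, 1066 and 1098 CPM for RvD1 recipient, vehicle recipient, RvD1 donor and vehicle donor. Each of these counts was 0 or 1, beside 5.23% of all measured genes higher and 9.6% lower.

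Nlrp3, the inflammasome sensor, was at 1059 CPM in RvD1 recipient against 1563 in vehicle recipient neutrophils, and at 1220 in RvD1 donor against 2258 in vehicle donor, with log2 ratios of -0.56 and -0.89. Casp1, the protease that matures interleukin-1 beta and interleukin-18, was low in neutrophils at 9.5 to 14.4 CPM and higher in classical monocytes at 59.0 to 84.6. Peli1 was at 143 against 252 and 165 against 268 in the same pairs of neutrophil libraries. Recipient over donor, 4 of 15 genes that respond to interleukin-1 were lower with both treatments in neutrophils, namely Cxcl1, Cxcl2, Cxcl3 and Icam1. Of all 6793 measured genes, 3.64% were lower. The list medians were -0.35 (RvD1) and -0.50 (vehicle) against -0.01 and -0.10 over all genes. This list was written with earlier results of these data known, so its count is a description only. The part of the mix of neutrophil clusters in it was not tested.

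Across 27 class and library sums, the gene whose level was most like Il1b was Cd14 (Pearson r = 0.987), out of 9165 genes searched. Il1rn was most like Lilr4b (0.981), Cxcl2 (0.981) and Nlrp3 (0.972), and Il1a most like Creb5 (0.955). Il1r2 was most like Pla1a (0.964), Il1rap most like Hdc (0.977), Il18 most like Tlr2 (0.972) and Il18r1 most like Gm20139 (0.947). The sums of a library share its depth and those of a class share its cell type, so these values are descriptions of which classes carry the genes.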

How the data were processed

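Leukocytes of 4 groups, 1 library each, were sequenced with the 10x Genomics 3' method. The deposited matrices hold unnormalized UMI counts from Cell Ranger (7.0.1 for RvD1, 6.1.1 for vehicle, per the file headers). Reads were aligned to mm10 and Seurat 4.0.0 was used, per the submitters' processing notes; whether intron reads were counted was not given in the sources used here.

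Barcodes with fewer than 200 genes or over 10% mitochondrial UMIs were dropped. Scrublet removed doublets at an assumed 0.8% per 1000 cells, 83 to 255 per library. Cells were clustered with scanpy 1.11.5 in Python 3.11.15 (4239 variable genes without interleukin-1 family genes, 30 components, 15 neighbours, Leiden resolution 1) and clusters were named by detection of 26 marker sets. The naming rule was settled after the clusters were seen. Unnamed clusters held 1532 cells.

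UMIs were added up within each class of a library and expressed as CPM (per 1000000 UMIs), for classes of at least 100 cells (50 where stated). Log2 ratios have no pseudocount, a sum of 0 being set to 3 UMIs, and need at least 100 UMIs. Intervals are exact Poisson, binomial or Clopper-Pearson 95% intervals and cover counting error only. The summing and ratios were tested on simulated counts. The named genes were taken from the 7 members, direct partners, and up to 3 genes per list with the largest mean ratio. Every gene past the size rule was added where a printed count of the main processing is 5 or fewer. Members counted under the alternatives were not named. Not every gene picked this way is given here, and list results are given for neutrophils only. The members and lists were chosen with earlier results of these data known. Alternatives were other scalings, filters, doublet treatment and clusterings.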

Additional observations from a re-analysis of the deposited data

Results flagged for a closer look

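These results were picked out because the same comparison had opposite signs in 2 groups. The difference was not tested in any of them, since each group is 1 library. Values are log2 ratios.

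For RvD1 over vehicle, Il1rn in nonclassical monocytes was 0.71 in recipient and -1.32 in donor cells, a difference of 2.03. Il1r2 in the same cells was 1.53 and -0.52, a difference of 2.05, and Il1b was 0.28 and -0.32, a difference of 0.60. The vehicle recipient library gave 23 Il1rn and 12 Il1r2 UMIs there. Il18r1 in T cells was -0.18 in recipient and 0.52 in donor cells, a difference of -0.70. Il1b in B cells was -0.34 and 1.33, a difference of -1.68, and 40.0% of the RvD1 donor UMIs came from 1 cell. Summed neutrophil markers in B cells had the same directions, at 308 CPM in RvD1 recipient against 901 in vehicle recipient, and 620 in RvD1 donor against 89.8 in vehicle donor, and their part was not tested.

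For recipient over donor, Il1b in classical monocytes was 0.13 with RvD1 and -0.40 with vehicle, a difference of 0.53. Il1r2 in these cells was -0.19 and 0.65, a difference of -0.84. Il1b in nonclassical monocytes was 0.18 and -0.42, a difference of 0.60. Il1rap in neutrophils was 0.18 and -0.07, a difference of 0.24. In NK cells Il1b was -1.33 and 0.65, a difference of -1.99, with 51.2% of the RvD1 donor UMIs in 1 cell, and Il1rap was -0.58 and 0.70, a difference of -1.28. Summed neutrophil markers in NK cells moved the same way, at 237 CPM in RvD1 recipient against 1281 in RvD1 donor, and 1244 in vehicle recipient against 213 in vehicle donor, and their part was not tested. Il1b in B cells was -0.62 with RvD1 and 1.06 with vehicle, a difference of -1.68, and the marker sums of B cells given above also had these directions, their part again not tested.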

How the results depend on the processing

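Values are log2 ratios. A value was counted as reversed only if its main counting interval lay off 0 and its sign changed. Other values left their main counting interval without counting as reversed. These were 32 of 104 with each library clustered alone, 20 of 121 with doublets kept and 10 of 125 at Leiden resolution 2. Median-of-ratios scaling and the mean of each cell's own level each gave 14 of 106. Without mitochondrial and ribosomal genes there were 5 of 106. Leaving out the Fnip2- and Pnpla7-high cluster gave 15 of 32. No value was reversed at Leiden resolution 2, with at most 5% mitochondrial UMIs, or with interleukin-1 family genes kept for clustering (125 values each). The same held without mitochondrial and ribosomal genes (106 values). A minimum of 50 UMIs (106 values) or 200 UMIs (87 values) only sets which values are kept. No sign could change there. Sign changes of values whose interval spanned 0 were not counted. Where a result changed, the cause was not tested.

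With median-of-ratios scaling, 1 neutrophil member was lower with RvD1 (0 before), and Il1rap in neutrophils, recipient over donor with vehicle, was 0.0111. With the mean of each cell's own level, 0 neutrophil members were higher (1 before), and recipient T-cell Il1b, RvD1 over vehicle, was 0.0329.

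With doublets kept, RvD1 over vehicle turned in donor classical monocytes for Il1a (-0.17), in recipient T cells for Il1b (1.37) and Il1r2 (0.85), and in donor NK cells for Il1b (-0.0821). Recipient over donor turned for Il1r2 in classical monocytes with RvD1 (0.13) and in T cells with RvD1 (-0.11) and vehicle (-0.80), and in NK cells for Il1b with RvD1 (0.65) and vehicle (-0.0891) and Il1rap with RvD1 (0.10).

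With each library clustered alone, 1 neutrophil member was lower with RvD1, and the recipient antagonist balance, Il1rn over Il1b, changed by -1.22 (-0.84 before). Its recipient-over-donor change with vehicle was 0.0297. Nonclassical monocytes turned for RvD1 over vehicle in recipient cells (Il1b -0.05, Il1rn -1.38, Il1r2 -1.22) and donor cells (0.30, 1.49, 3.29, balance 1.19), and for recipient over donor with vehicle (0.59, 2.87, 4.83, balance 2.28). NK-cell Il1b, recipient over donor with RvD1, was 0.55.

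Without the Fnip2- and Pnpla7-high cluster, the neutrophil balance changed by -0.21 (recipient) and -0.19 (donor), recipient Il1rn was 0.25 and donor Il1r2 -0.16. With the unnamed cluster added to nonclassical monocytes, chosen after seeing the data, 2 members were lower (0 before). Recipient ratios were -0.16 (Il1b), -1.56 (Il1rn) and -1.45 (Il1r2), and recipient over donor with vehicle was 0.15 (Il1rn), 1.12 (Il1r2) and 0.21 (balance).

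No paired analysis was possible because each group is 1 library. Depth limits classes under 100 cells and genes under 100 UMIs in a comparison.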
